A study of Mus musculus with 8 samples.

Results

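The genes described here encode the proteins of the cytosolic ribosome. They were chosen by gene symbol: every probe set with exactly 1 platform symbol of the Rpl, Rps, Rplp or Rpsa form entered, S6 kinases and pseudogenes named as such were left out, and each gene was represented by its brightest probe set. This gave 60 of the 19938 genes measured. They comprise 20 proteins of the small (40S) subunit, 33 of the large (60S) subunit and 7 paralogs or like-named genes (Rpl3l, Rpl7l1, Rpl10l, Rpl32l, Rpl39l, Rps4l and Rps27l). RefSeq lists Rps4l as a transcribed pseudogene. Of 79 canonical ribosomal proteins looked for, 26 were not among the members. Fau and Rps3a1 were measured but do not have a symbol of the chosen form, 16 (such as Rpl3, Rpl11 and Rpl39) were named only by probe sets that share several symbols, and 8 were not analysed here.

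The cells were mouse embryonic stem cells (ESCs) of the feeder-independent line CGR8, for which 129P2/OlaHsd is given as donor strain and C57BL/6 as background. PML is the scaffold protein of nuclear bodies that bear its name. The groups were PML KD embryoid bodies (EBs) at day 4, WT EBs at day 4, PML KD ESCs at day 0 and WT ESCs at day 0, each with 2 Affymetrix mouse gene arrays. PML KD cells stably expressed a hairpin against PML from a lentiviral vector and were kept by selection with 2 μg/ml puromycin. ESCs grew with 100 U/ml leukaemia inhibitory factor (LIF), and EBs formed without LIF, in hanging drops for the first 2 days. All groups were at passages 5 to 13. Viruses of an empty vector are mentioned in the protocol, but the controls are labelled WT, and the sources used here do not say if they received such a virus. Separate cultures are not stated for the 2 arrays of a group, and p-values then measure only the spread between these arrays, which may be technical.

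Ribosomal protein mRNAs are among the most abundant of a growing cell, and their proteins are needed in nearly equal numbers because each ribosome takes up a single copy of most of them. In vertebrates these mRNAs begin with a cytosine followed by a run of pyrimidines, the terminal oligopyrimidine (TOP) motif, through which mTOR and LARP1 set their translation. Transcription of the genes is promoted by MYC in many cell types. Surplus ribosomal proteins of the 5S particle, RPL5 and RPL11, bind MDM2 and thereby stabilise p53. A few genes have paralogs with narrower expression, such as Rpl10l and Rpl39l in the testis and Rpl3l in muscle.

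The RefSeq start sites of 48 of the 60 members were matched in a promoter table (build GRCm38.p6). A C at the annotated start with at least 4 pyrimidines after it was found in 10 of the 48 (20.8%), against 3.01% of 27025 genes with a promoter in the table. Such a run lay within 10 bases of the start in 58.3% of the members and 34.4% of all genes. Searched on both strands of the 300 bases around the start, CCGGAAG, the core bound by ETS factors, was present in 37.5% of the members and 9.93% of all genes, AAGATGGC in 6.25% and 3.19%, and TATAAA in 12.5% and 15.7%. None of these motifs contains another. The next lines show 30 bases of 5 members with the TOP start, chosen to span both subunits and different responses below, and of the testis paralogs that responded most. Like most matched members, these paralogs have no such run at their annotated start. Both have one that begins within 10 bases of it. Capitals mark the C and the pyrimidines after it, beginning at the annotated start.
Rps6 (chr4:86857348-86857377, minus strand): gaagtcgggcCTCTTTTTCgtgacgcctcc
Rps10 (chr17:27635225-27635254, minus strand): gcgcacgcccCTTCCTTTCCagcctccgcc
Rps21 (chr2:180257369-180257398, plus strand): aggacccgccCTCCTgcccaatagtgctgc
Rpl14 (chr9:120571507-120571536, plus strand): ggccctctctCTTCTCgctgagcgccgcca
Rplp2 (chr7:141447641-141447670, plus strand): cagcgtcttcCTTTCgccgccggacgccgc
Rpl10l (chr12:66284382-66284411, minus strand): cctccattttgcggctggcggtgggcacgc
Rpl39l (chr16:10170218-10170247, plus strand): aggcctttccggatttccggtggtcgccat
Annotated starts may lie some bases from the start used in these cells, which the arrays do not measure.

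Within groups, the correlation between arrays over all genes was 0.996 to 0.997. Pml itself had a log2 signal of 10.52 and 10.67 in PML KD EBs against 10.96 and 10.91 in WT EBs, and of 11.17 and 11.08 in PML KD ESCs against 11.59 and 11.58 in WT ESCs. It fell by 0.34 ± 0.08 at day 4 (adjusted p = 0.0145) and by 0.46 ± 0.08 at day 0 (adjusted p = 0.00192). The fall at day 4 did not pass without the first PML KD EB array (adjusted p = 0.0909), without the first WT EB array (adjusted p = 0.0658) or after a shift of array medians (-0.13, adjusted p = 0.246). Here and below, ± on a difference is its SE (standard error) from limma with n = 2 arrays per group, adjusted p is Benjamini-Hochberg over all genes, and a gene that rose or fell had an adjusted p under 0.05. The PML KD ESC arrays stood apart in the Y-linked gene Eif2s3y, at 5.08 and 4.85 against 9.86 to 10.27 on the other 6 arrays. Every comparison with those arrays thus compares cultures that differ in more than Pml. This includes the change over time in PML KD, where Eif2s3y rose by 4.95 ± 0.10. There a change with differentiation and a difference between cultures cannot be told apart. Markers of undifferentiated cells were present in all groups and fell from day 0 to day 4 in 8 of 8 genes in both lines.

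The members were bright. Their median log2 signal was 13.13 and 13.16 on the arrays of PML KD EBs, 13.19 and 13.25 in WT EBs, 12.88 and 12.89 in PML KD ESCs, and 13.17 and 13.15 in WT ESCs. The arrays of PML KD ESCs were thus the lowest. Together the members made up 4.19% and 4.14% of the summed linear signal in PML KD EBs, 4.39% and 4.42% in WT EBs, 3.86% and 3.85% in PML KD ESCs, and 4.40% and 4.34% in WT ESCs. The order of genes by signal is that of their probe sets, since the brightness of different probes cannot be compared as abundance. Rpl21 had the brightest probe set (mean 14.25) and Rpl3l, the muscle paralog of the ribosomal protein RPL3, the dimmest (6.58). Of the 53 canonical members, 45 were at or above the 96.4th percentile of all genes, and 8 had probe sets between the 64.4th and 89.7th percentile: Rplp2, Rpl26, Rpl34, Rps15a, Rpl30, Rpl22, Rpl12 and Rpl14.

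**Figure D1:**
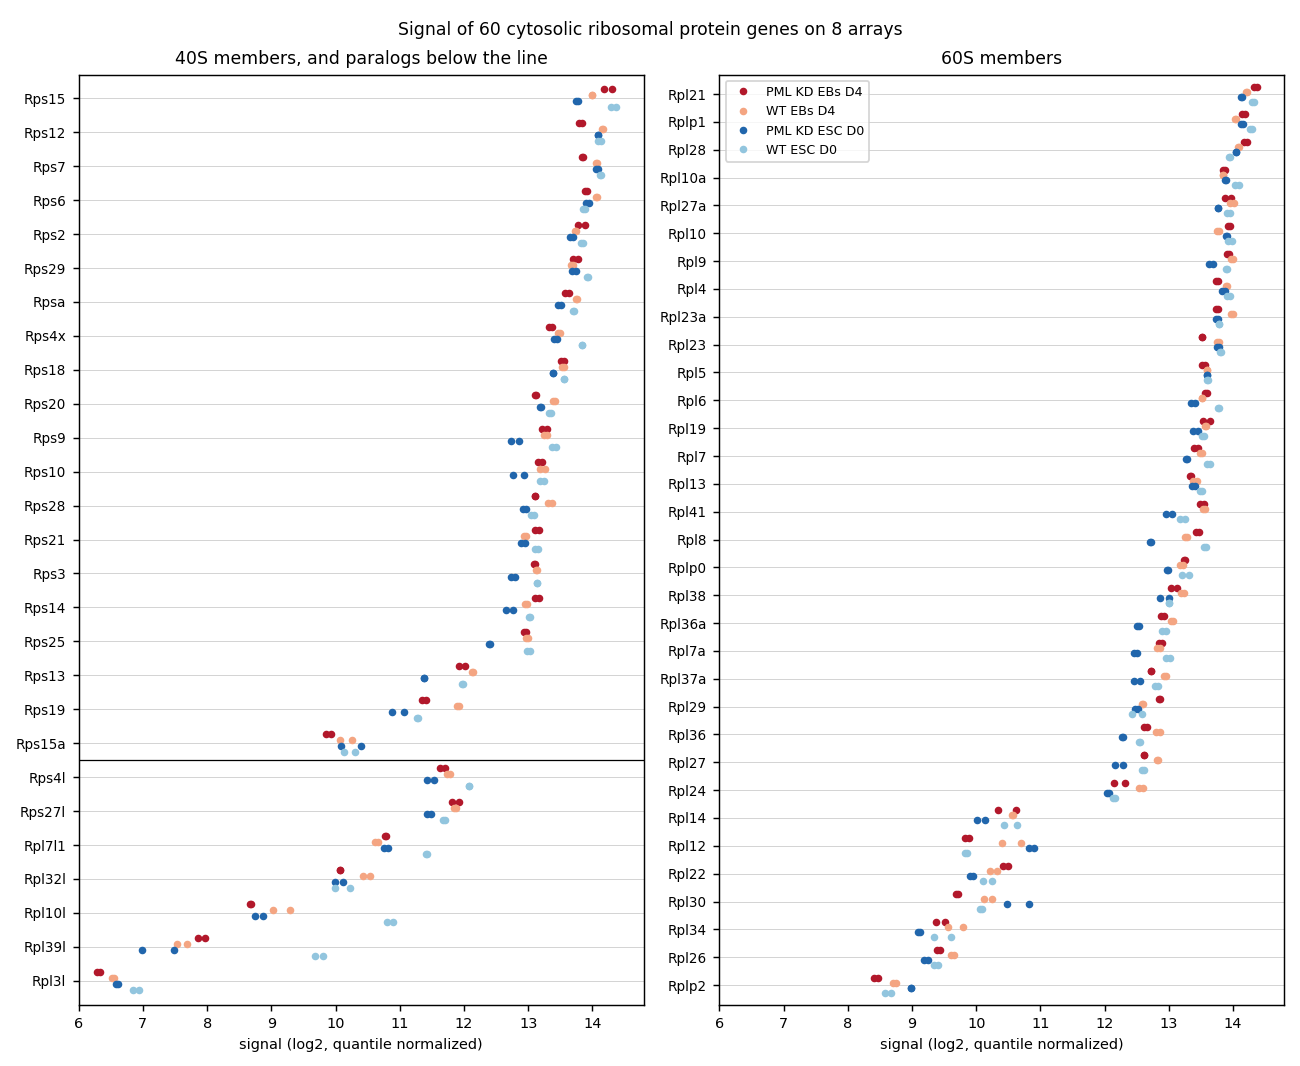
Log2 signal after quantile normalization of each of the 60 genes (rows) on each of the 8 arrays (points, 2 per group, coloured by group). Left, 40S genes with the 7 paralogs below the line; right, 60S genes. Most canonical genes lie above 12 with all arrays close together, whereas the WT ESC arrays stand far to the right for Rpl39l and Rpl10l.

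Many probe sets that carry a member's symbol lie outside that gene's own transcript cluster. The brightest probe set was the one paired with the gene in the deposited workbook for 25 members, another for 33, and 2 had no match there. The 60 members had 216 probe sets together. In the 39 members with several, the median span of mean log2 signal between probe sets of a gene was 0.48. Near-identical copies of these genes may share their signal. The difference PML KD minus WT at day 0 also varied between probe sets of a gene. It ran from -0.73 to -0.21 for Rps21 and from -0.29 to -0.01 for Rpl5, but only from -0.60 to -0.59 for Rps13. Probe sets of a gene split in sign for 3 members at day 0, 7 at day 4, 10 over time in WT and 5 over time in PML KD. Single values are uncertain to that extent.

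At day 0, ribosomal protein transcripts were lower in PML KD ESCs than in WT ESCs for 32 of 60 members, and higher for 3. Over all genes 27% fell and 16.9% rose, and over the 1994 brightest genes 40.5% fell and 33.8% rose. The members' median difference, PML KD minus WT, was -0.211 on the log2 scale, against -0.056 over all genes and -0.076 over the 1994 brightest genes. Most single differences were small, with the middle of the distribution between -0.374 and -0.081. Both subunits took part: 12 of 20 genes of the 40S subunit fell and 0 rose, and 14 of 33 of the 60S subunit fell and 3 rose. Of the 40S genes 0 were higher and 14 lower at an unadjusted p under 0.05 in limma. The share of all genes at this looser threshold is not given. Fewer members fell when any single array was left out, EB arrays included. A lone array in a group lowers the power for every gene, and shares over all genes are not given for these fits.

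Among 40S genes the falls ran to 0.61. Rps9, a protein of the decoding side of the 40S subunit, had log2 signals of 12.73 and 12.85 in PML KD ESCs against 13.44 and 13.37 in WT ESCs, and fell by 0.61 ± 0.07 (adjusted p = 0.000346). Rps13, a primary binding protein of 18S rRNA, stood at 11.38 and 11.38 in PML KD ESCs against 11.99 and 11.97 in WT ESCs, a fall of 0.60 ± 0.07 (adjusted p = 0.000216). Rps25, which contacts tRNA at the exit site and is needed by several viral entry sites, was at 12.39 and 12.41 in PML KD ESCs against 12.98 and 13.02 in WT ESCs, and fell by 0.60 ± 0.06 (adjusted p = 0.000189). In all 3 genes the groups were far apart beside the gap within a group. The 6 probe sets of Rps25 differed by -0.83 to -0.51, but in the gene workbook its difference was -0.18 ± 0.08 and did not pass (adjusted p = 0.104). Rps15, mutated in chronic lymphocytic leukaemia, fell by 0.56 ± 0.07 (adjusted p = 0.000453), with 13.78 and 13.75 in PML KD ESCs against 14.36 and 14.29 in WT ESCs. Rpsa, which is also the laminin receptor, fell by 0.22 ± 0.06 (adjusted p = 0.0253), but did not pass without any single ESC array of either line or in the workbook (-0.16, adjusted p = 0.109). Rps6, the substrate of S6 kinase, was at 13.90 and 13.95 in PML KD ESCs against 13.86 and 13.89 in WT ESCs and did not pass (0.05 ± 0.06, adjusted p = 0.558).

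Among canonical 60S genes Rpl8 had the largest fall. Its protein lies near the peptidyl transferase centre. The signal was 12.72 and 12.71 in PML KD ESCs against 13.58 and 13.55 in WT ESCs, which is 0.556 times the WT level (-0.85 ± 0.06, adjusted p = 4.08e-05). Rpl7a fell by 0.51 ± 0.07 (adjusted p = 0.000548), with 12.46 and 12.50 in PML KD ESCs against 13.02 and 12.95 in WT ESCs. Of the stalk proteins, which recruit translation factors, Rplp0 fell by 0.28 ± 0.07 (adjusted p = 0.0129). It did not pass without the first PML KD ESC array or the second WT ESC array. The probe set paired with Rplp0 in the workbook, which is not its brightest, gave -0.19 and did not pass (adjusted p = 0.0544). The workbook value was -0.85 ± 0.09 (adjusted p = 0.000958). Rplp1 differed by -0.14 ± 0.06 and did not pass (adjusted p = 0.119). Rpl5, of the 5S particle, did not pass, at 13.60 and 13.59 in PML KD ESCs against 13.60 and 13.61 in WT ESCs (-0.01 ± 0.06, adjusted p = 0.902). Rpl13, the member on chromosome 8, differed by -0.12 ± 0.07 in its brightest probe set (adjusted p = 0.178), which is not the one paired with it in the workbook. The paired probe set gave -0.22 and passed (adjusted p = 0.039), while the workbook value was -0.21 and did not pass (adjusted p = 0.0536). The 9 probe sets of Rpl13 ran from -0.38 to -0.12. The genes of chromosome 8 with signal above the median had a median difference of 0.145 at day 0, against -0.118 over those outside chromosomes 8 and 14. No member lies on chromosome 14.

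The 3 genes that rose at day 0 were Rpl12, Rpl30 and Rplp2, all of the 60S subunit and all among the 8 dim probe sets. Rpl12, a protein at the base of the stalk, was at 10.82 and 10.90 in PML KD ESCs against 9.83 and 9.85 in WT ESCs and rose by 1.02 ± 0.10, or 2.03 times (adjusted p = 0.000132). The workbook gave 11.28 and 11.34 in PML KD ESCs against 10.07 and 10.07 in WT ESCs, a difference of 1.24 ± 0.10 (adjusted p = 0.000438). Rpl30, at 10.48 and 10.82 in PML KD ESCs against 10.09 and 10.06 in WT ESCs, rose by 0.58 ± 0.11 (adjusted p = 0.00389), and the stalk gene Rplp2 rose by 0.36 ± 0.07 (adjusted p = 0.00328). These last 2 rises were not seen in the workbook, where the same genes were bright, in the 98.6th and 97.7th percentile, and differed by -0.04 ± 0.08 for Rpl30 (adjusted p = 0.751) and -0.13 ± 0.08 for Rplp2 (adjusted p = 0.23).

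**Figure D2:**
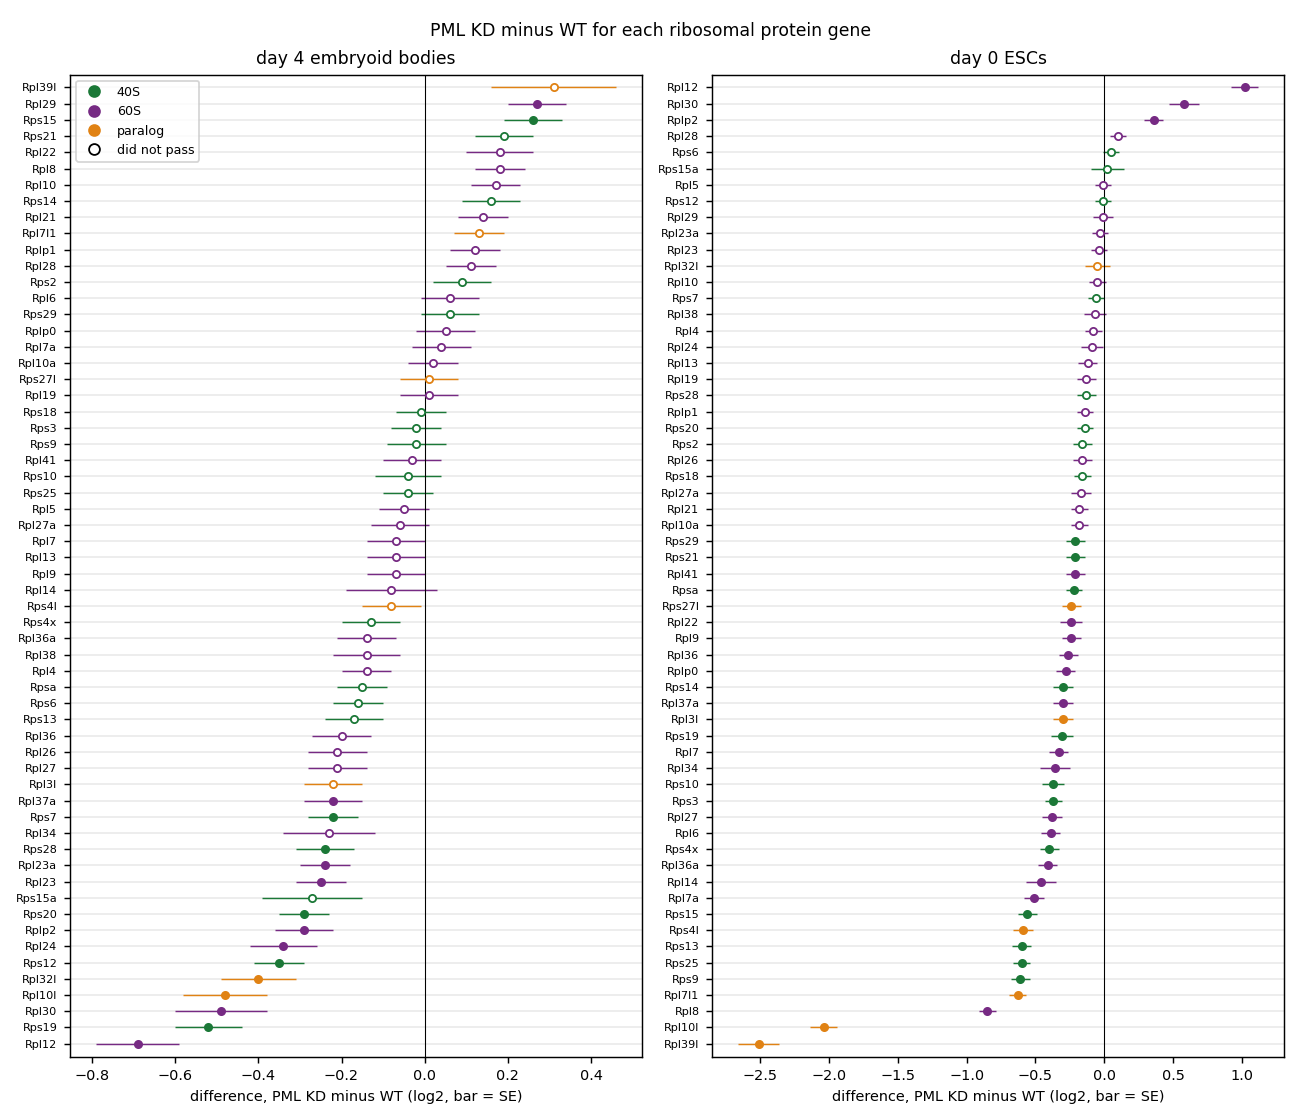
Difference PML KD minus WT (log2, x axis) for each of the 60 genes (rows, ordered by the difference) in day 4 EBs (left) and day 0 ESCs (right). Points are coloured by subunit, bars are the SE of the fit, and open points did not pass an adjusted p under 0.05. In ESCs 32 genes fell and 3 rose, and in EBs 14 fell and 2 rose; after a shift of the array medians the counts are 57 and 1 in ESCs (37.2% and 10.2% of all genes) and 4 and 12 in EBs (6.23% and 25.2%). The 2 panels have different x ranges.

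The largest differences at day 0 belonged to the paralogs Rpl39l and Rpl10l. The other paralogs differed less than the canonical Rpl12 and Rpl8. Of the 7 paralogs 6 fell, where 27% of all genes fell. Rpl39l, the testis paralog of a small protein at the exit tunnel, had log2 signals of 6.98 and 7.48 in PML KD ESCs against 9.80 and 9.68 in WT ESCs. It fell by 2.51 ± 0.15, to 0.175 times the WT level (adjusted p = 1.92e-05). Rpl10l, which stands in for the X-linked Rpl10 during male meiosis, was at 8.87 and 8.74 in PML KD ESCs against 10.80 and 10.90 in WT ESCs, a fall of 2.04 ± 0.10 to 0.243 times (adjusted p = 1.01e-05). Its parent Rpl10 differed by -0.05 ± 0.06 (adjusted p = 0.582). For both paralogs the WT ESC arrays were far above the arrays of every other group, whichever the line. Rpl7l1, a nucleolar protein related to Rpl7, fell by 0.63 ± 0.06 (adjusted p = 0.000151), beside a fall of 0.33 ± 0.07 in Rpl7 (adjusted p = 0.00444). Rps4l fell by 0.59 ± 0.07 (adjusted p = 0.000319) and its X-linked parent Rps4x by 0.40 ± 0.07 (adjusted p = 0.00146). Rps27l, a p53 target, fell by 0.24 ± 0.07 (adjusted p = 0.0258) and the dim Rpl3l by 0.30 ± 0.07 (adjusted p = 0.00926). Rps27l did not pass without any single ESC array of either line or in the workbook (-0.16, adjusted p = 0.171), nor Rpl3l without the second WT ESC array. In the workbook Rpl3l differed by 0.17 at day 0, so its direction there is the opposite. As deposited Rpl3l differed by -0.02 at day 0 and did not pass (adjusted p = 0.802). Rpl32l differed by -0.05 ± 0.09 and did not pass (adjusted p = 0.723).

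**Figure D3:**
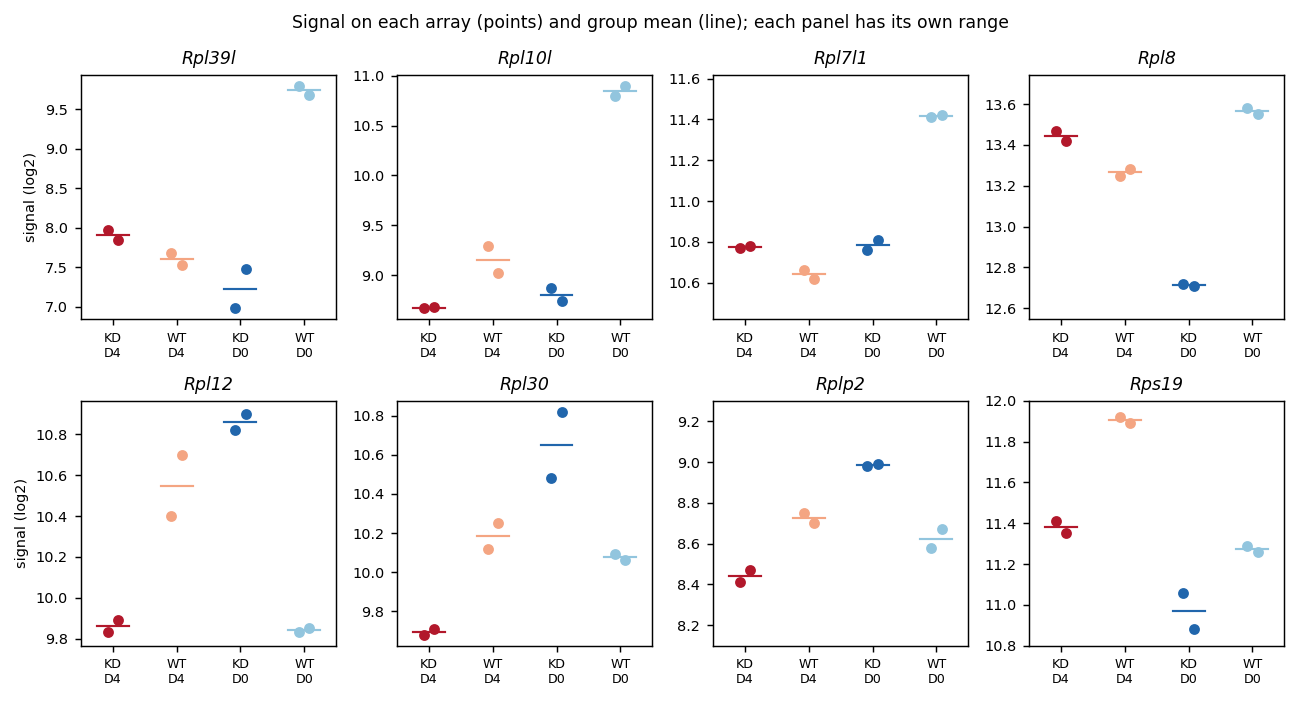
Log2 signal on each array (points) and group mean (line) of 8 members, with the groups PML KD EBs D4, WT EBs D4, PML KD ESC D0 and WT ESC D0 from left to right and a separate y range in each panel. Rpl39l, Rpl10l and Rpl7l1 are highest in WT ESCs, while Rpl12, Rpl30 and Rplp2 are highest in PML KD ESCs and lowest in PML KD EBs or, for Rpl12, in PML KD EBs and WT ESCs.

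At day 4 the differences between the lines were smaller. In PML KD EBs 14 of 60 members were lower than in WT EBs and 2 were higher, where 10.1% of all genes fell and 17.3% rose. Of the 1994 brightest genes 18.7% fell and 31.4% rose. The median over members was -0.074, against 0.037 over all genes and 0.061 over the 1994 brightest. The direction of the members' median turns under a shift of array medians, to 0.063, with 4 lower and 12 higher, where 6.23% of all genes fell and 25.2% rose. Relative to the median of all genes under the same scaling it was -0.111 after quantile normalization, -0.06 in the workbook and -0.029 as deposited; a median shift leaves this last value the same by construction. Fewer members fell when any single EB array was left out, which lowers the power for every gene.

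Rpl12 had the largest fall at day 4, at 9.83 and 9.89 in PML KD EBs against 10.40 and 10.70 in WT EBs (-0.69 ± 0.10, adjusted p = 0.00214). Rps19, the gene mutated most often in Diamond-Blackfan anaemia, was at 11.41 and 11.35 in PML KD EBs against 11.92 and 11.89 in WT EBs and fell by 0.52 ± 0.08 (adjusted p = 0.00247). The workbook gave -0.64 ± 0.13 for Rps19 (adjusted p = 0.0183). Rpl30 fell by 0.49 ± 0.11 (adjusted p = 0.0142), Rpl10l by 0.48 ± 0.10 (adjusted p = 0.0097) and Rpl32l by 0.40 ± 0.09 (adjusted p = 0.0163). Rps12, at 13.83 and 13.79 in PML KD EBs against 14.15 and 14.16 in WT EBs, fell by 0.35 ± 0.06 (adjusted p = 0.00575). Rpl24, a protein of the bridge between the subunits, fell by 0.34 ± 0.08 (adjusted p = 0.0129). Rps20, Rplp2 and Rpl23 fell by 0.29, 0.29 and 0.25, and the other 4 members that fell did so by 0.22 to 0.24. In the workbook Rpl30 (-0.15, adjusted p = 0.257), Rpl24 (-0.12, adjusted p = 0.331) and Rps12 (-0.23, adjusted p = 0.058) did not pass. After the median shift Rpl30, Rpl32l, Rps12, Rpl24, Rps20, Rplp2 and Rpl23 did not pass, at -0.32 to -0.08. The 2 genes that rose were Rpl29, by 0.27 ± 0.07 (adjusted p = 0.0284), and Rps15, by 0.26 ± 0.07 (adjusted p = 0.0319). In the workbook neither passed, at 0.06 for Rpl29 (adjusted p = 0.571) and 0.23 for Rps15 (adjusted p = 0.0952). Rpl29 did not pass without any single EB array. Rps15 did not pass without the second PML KD EB array, either WT EB array or either WT ESC array, nor with the replicate number as a block (adjusted p = 0.0503). Without either PML KD EB array Rpl10l, Rpl30, Rpl32l, Rps20, Rplp2 and Rpl23 did not pass. The same held without the first WT EB array for Rpl32l, Rplp2 and Rpl23, and without the second WT EB array for Rpl30, Rps20 and Rpl23. Rpl24 did not pass without the second PML KD EB array or the second WT EB array. Rpl39l did not pass (0.31 ± 0.15, adjusted p = 0.187), with 7.97 and 7.85 in PML KD EBs against 7.68 and 7.53 in WT EBs. It passed when both PML KD ESC arrays were left out (adjusted p = 0.0444). In the workbook Rpl39l differed by 0.06 ± 0.26 and did not pass (adjusted p = 0.898).

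Marker transcripts of other cell types also differed between the EBs of the lines. The 8 visceral endoderm markers, led by Afp, Apob and Apoa1, had a summed linear signal of 7000 and 6970 in PML KD EBs against 31100 and 30000 in WT EBs, and 8 of 8 fell. Of 5 fibroblast markers 3 were higher in PML KD EBs, with sums of 2180 and 2320 in PML KD EBs against 1290 and 1280 in WT EBs. The other 2 fibroblast markers differed the other way, down to -0.152, and did not pass. Of 3 neuroectoderm and 4 blood markers, 2 each were higher and the rest did not pass. Over all genes 10.1% fell and 17.3% rose at day 4. The part of these differences in the ribosomal protein results was not tested, and in bulk RNA fewer cells of a type and less RNA per cell cannot be told apart.

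With differentiation the WT line had similar numbers of rises and falls. In WT EBs 11 members were higher than in WT ESCs and 13 were lower, where 17.4% of all genes rose and 26.2% fell. Among the 1994 brightest genes 28% rose and 44.2% fell. The median over members was 0.001 against -0.047 over all genes. Its sign turned as deposited (-0.033) and after the median shift (-0.242, with 2 higher and 38 lower, where 11.2% of all genes rose and 37.7% fell). Fewer members rose and fewer fell when any single array of either line was left out. A lone array in a group lowers the power for every gene.

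Rpl12 rose by 0.71 ± 0.10 (adjusted p = 0.000764) and Rps19 by 0.62 ± 0.08 (adjusted p = 0.000406), with Rps19 at 11.92 and 11.89 in WT EBs against 11.29 and 11.26 in WT ESCs. Rpl24, Rpl32l and Rpl41, which encodes the smallest ribosomal protein, rose by 0.43, 0.37 and 0.34. Rpl32l did not pass without the first WT EB array or the second WT ESC array. After the median shift Rpl24 stood at 0.12 (adjusted p = 0.298), Rpl41 at 0.11 (adjusted p = 0.26) and Rpl32l at -0.02, and none of them passed. Rpl41 also did not pass in the workbook (0.17, adjusted p = 0.0885) or with the probe set paired with it there (0.11, adjusted p = 0.218). The falls were led by the paralogs: Rpl39l fell by 2.13 ± 0.15 (adjusted p = 1.92e-05), Rpl10l by 1.69 ± 0.10 (adjusted p = 7.56e-06) and Rpl7l1 by 0.77 ± 0.06 (adjusted p = 4.17e-05). Canonical genes that fell did so by 0.19 to 0.36, the largest being Rps4x (-0.36 ± 0.07, adjusted p = 0.00262).

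In the PML KD line 27 of 60 members were higher in EBs than in ESCs and 8 were lower, where 26.9% of all genes rose and 19.4% fell. Among the 1994 brightest genes 37.8% rose and 35.5% fell. The median over members was 0.169 against 0.043 over all genes and 0.037 over the 1994 brightest. Rpl8 rose most, by 0.73 ± 0.06 (adjusted p = 4.6e-05), at 13.47 and 13.42 in PML KD EBs against 12.72 and 12.71 in PML KD ESCs. Rpl39l rose by 0.68 ± 0.15 (adjusted p = 0.00689; 0.0523 without the first PML KD EB array), Rps13 by 0.59 ± 0.07 (adjusted p = 0.000188) and Rps25 by 0.54 ± 0.06 (adjusted p = 0.000244). Rpl41, Rpl22, Rps15, Rps9, Rps14 and Rps27l rose by 0.41 to 0.52. Rpl22, whose loss is common in T cell leukaemia, stood at 10.49 and 10.41 in PML KD EBs against 9.90 and 9.95 in PML KD ESCs. The falls were those of Rpl12 (-1.0 ± 0.10, adjusted p = 0.000103), Rpl30 (-0.95 ± 0.11, adjusted p = 0.000226) and Rplp2 (-0.55 ± 0.07, adjusted p = 0.000305), and of Rps15a, Rpl3l, Rps12, Rpl23 and Rps7 by 0.22 to 0.35. Of these, Rps15a, Rpl23 and Rps7 did not pass without either PML KD EB array and Rpl3l without the first. Without the first PML KD ESC array Rps15a did not pass, and without the second Rpl23 and Rps7 did not. In the workbook Rpl30 (-0.10, adjusted p = 0.361), Rplp2 (-0.13, adjusted p = 0.2), Rps12 (-0.13, adjusted p = 0.152) and Rps7 (-0.03, adjusted p = 0.704) did not pass. Rpl3l (-0.32, adjusted p = 0.348) and Rps15a (0.02, adjusted p = 0.85) did not pass there either, while Rpl12 and Rpl23 did, at -1.19 and -0.42. Of the rises named, Rps25 differed there by 0.17 and did not pass (adjusted p = 0.11). As deposited Rpl23, Rps7, Rps12 and Rps15a did not pass, at -0.28 to -0.01. Fewer members fell when either PML KD EB array was left out, and fewer rose when any single array was, with less power for every gene.

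The change from day 0 to day 4 was compared between the lines as the change in PML KD minus the change in WT. It was higher in PML KD for 19 members and lower for 4, where 27.4% and 14.7% of all genes passed in these directions, so the count of 19 is close to the share over all genes. Of the 1994 brightest genes 41.5% and 28.8% passed in these directions. The median over members was 0.18, against 0.092 over all genes and 0.141 over the 1994 brightest. The comparison shares its arrays with those above, so it adds no separate evidence to them. It includes the PML KD ESC arrays, which stood apart in Eif2s3y. Rpl39l led with 2.82 ± 0.22 (adjusted p = 5.83e-05), with a rise in PML KD and a fall in WT. Rpl10l followed at 1.56 ± 0.14 (adjusted p = 0.000115), then Rpl8 at 1.03 ± 0.09 (adjusted p = 9.75e-05), Rps15 at 0.82 ± 0.10 (adjusted p = 0.000457) and Rpl7l1 at 0.76 ± 0.09 (adjusted p = 0.000377). On the other side stood Rpl12 at -1.71 ± 0.14 (adjusted p = 8.34e-05), Rpl30 at -1.07 ± 0.16 (adjusted p = 0.0011), Rplp2 at -0.65 ± 0.10 (adjusted p = 0.00112) and Rps12 at -0.33 ± 0.09 (adjusted p = 0.0198), which did not pass without the second PML KD EB array or the second WT ESC array. In the workbook Rpl30 (-0.11, adjusted p = 0.494), Rplp2 (-0.28, adjusted p = 0.0953) and Rps12 (-0.26, adjusted p = 0.0803) did not pass.

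**Figure D4:**
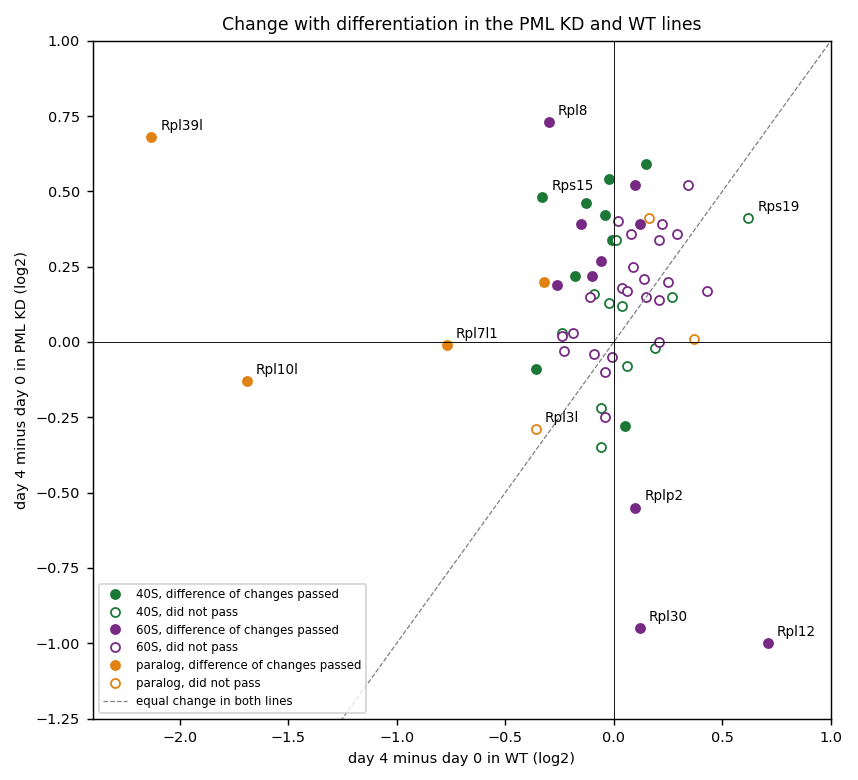
Change from day 0 to day 4 (log2) of each member in WT (x axis) and in PML KD (y axis), coloured by subunit; filled points passed the test of the difference of changes, and the dashed line marks equal changes. Rpl39l lies at the upper left (a fall in WT, a rise in PML KD), Rpl12 at the lower right, and most canonical genes within 0.5 of 0 in WT. Rps12 turns to 0.26 in this difference after a shift of array medians.

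How the arrays are scaled moves the members as a block. The median of all genes at day 0, PML KD minus WT, was -0.056 after quantile normalization, 0.085 as deposited, -0.14 after aligning array medians and 0.038 in the workbook. The members' median at day 0 was below 0 under all 4 scalings (-0.211, -0.404, -0.629 and -0.245), with 32, 51, 57 and 30 members lower, where 27%, 24.9%, 37.2% and 21.2% of all genes fell. A median shift moves all genes of an array alike, so the members' median set against other genes is the same as for the deposited values by construction. Set against the 1994 brightest genes, it was -0.135 after quantile normalization, -0.158 as deposited and -0.157 in the workbook. In the same order this measure was 0.133, 0.215 and 0.168 for the PML KD line over time, 0.12, 0.252 and 0.244 for the WT line, and -0.135, -0.189 and -0.148 at day 4.

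**Figure D5:**
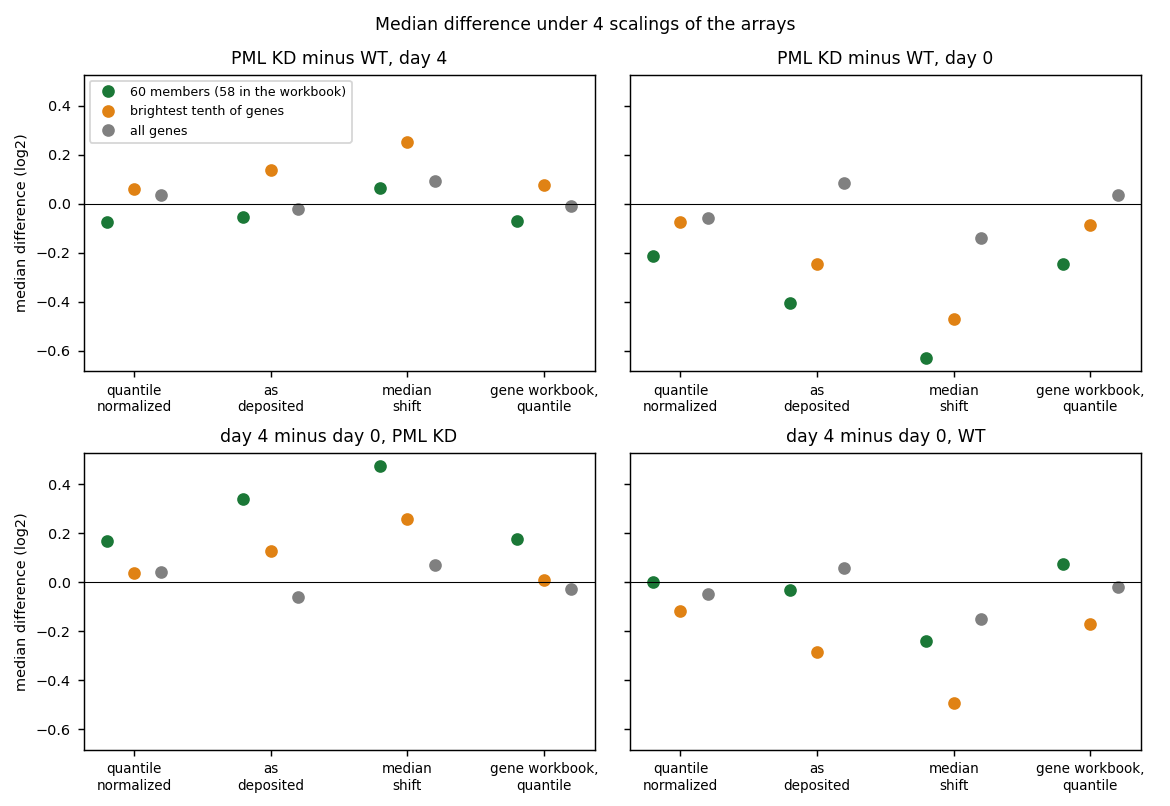
Median difference (log2, y axis) of the members (green), the brightest genes (orange) and all genes (grey) in 4 comparisons (panels) under 4 scalings of the arrays (x axis). The members lie below the brightest genes at both days for PML KD minus WT, and above them over time in both lines, while their side of 0 changes at day 4 and over time in WT.

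Other parts of the translation machinery were examined beside the members. Of 13 measured genes with TOP mRNAs outside the members, 6 fell and 0 rose at day 0, with a median of -0.214, beside the 27% of all genes that fell and 16.9% that rose. Fau, the precursor of a 40S protein, was at 11.99 and 11.99 in PML KD ESCs against 12.72 and 12.77 in WT ESCs and fell by 0.76 ± 0.06 (adjusted p = 6.25e-05). Subunits of initiation factor 3 fell as well: Eif3f by 0.96 ± 0.07 (adjusted p = 3.4e-05), Eif3h by 0.67 ± 0.07 (adjusted p = 0.00022) and Eif3e by 0.60 ± 0.08 (adjusted p = 0.000555). At day 0 the limma fit had 0 of the 13 higher and 8 lower at an unadjusted p under 0.05. Shares over all genes are not given at that threshold. At day 4 0 of the 13 passed in either direction, where 10.1% of all genes fell and 17.3% rose. At an unadjusted p under 0.05 in limma 1 was higher and 1 lower. The 13 differences lay between -0.196 and 0.158.

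Of 15 measured genes that control ribosomal protein synthesis, 3 fell and 5 rose at day 0, where 27% of all genes fell and 16.9% rose. Myc was at 7.85 and 8.15 in PML KD ESCs against 10.04 and 9.94 in WT ESCs (-2.0 ± 0.11, adjusted p = 1.43e-05), and at 9.18 and 9.24 in PML KD EBs against 8.02 and 8.19 in WT EBs, where it was higher by 1.11 ± 0.11 (adjusted p = 0.00038). Max, its partner, fell by 0.73 ± 0.07 at day 0 (adjusted p = 0.000118), and Larp1, the TOP mRNA repressor, rose by 0.56 ± 0.08 (adjusted p = 0.00066; 0.111 after the median shift). Mtor differed by 0.00 ± 0.07 (adjusted p = 0.998), or by -0.40 after the median shift. Among 15 measured chaperones and importers of ribosomal proteins 8 fell and 2 rose at day 0, beside the same shares of all genes, led by Bccip (-1.48 ± 0.11, adjusted p = 3.78e-05), Aamp (-1.11 ± 0.06, adjusted p = 1.69e-05), Znhit3 (-0.93 ± 0.10, adjusted p = 0.000158) and Ltv1 (-0.90 ± 0.08, adjusted p = 9.22e-05). Of the p53 sensor genes, Mdm2 fell by 0.71 ± 0.08 (adjusted p = 0.000235) and Mdm4 rose by 1.2 ± 0.06 (adjusted p = 1.3e-05) at day 0.

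The 77 mitochondrial ribosomal protein genes, which serve a separate ribosome, gave a median of -0.445 at day 0, with 63 lower and 2 higher, against -0.211 with 32 lower and 3 higher for the cytosolic ones. At day 4 their median was 0.174 with 4 lower and 25 higher, against -0.074 with 14 lower and 2 higher. Over time in PML KD 43 mitochondrial genes rose and 6 fell (median 0.332), and in WT 6 rose and 47 fell (median -0.361). Over all genes 27% were lower and 16.9% higher at day 0, and 10.1% lower and 17.3% higher at day 4. Over time 26.9% of all genes rose and 19.4% fell in PML KD, and 17.4% rose and 26.2% fell in WT. The difference between the families was not tested.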

How the data were processed

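Total RNA of 8 samples was hybridised to Affymetrix mouse gene arrays, 2 per group. Per probe set (35556 in all), the deposited table gives 1 intensity on a linear scale, with array medians from 169 to 199. The authors' deposited workbook holds log2 values for 24451 genes. The submitters' processing notes name the Transcriptome Analysis Console; how the background was corrected and the arrays normalized is not stated in them. Here, log2 of each deposited intensity was taken and all probe sets were quantile normalized. Of 23410 annotated probe sets 21789 had 1 symbol and were used, 1621 had several and were not; the brightest per gene left 19938 genes. A single limma model (version 3.58.1, R 4.3.3) with 4 group means was fitted to the 8 arrays, and p-values were adjusted by Benjamini-Hochberg with a threshold of 0.05. It was tested on simulated data with shrunken variances; a first simulation with raw variances had recovered fewer of the changed genes. The SD of a single array was 0.107 to 0.129 over all genes, and the number of arrays limits the precision. The workbook's 4 columns of means were left out. Deviations of same-numbered arrays correlated from -0.0717 to 0.0537, so the numbers were not taken to pair arrays.

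Named genes are, for each pairwise comparison, the 10 largest rises and falls among members that passed with no overlap between the groups' arrays, and for the difference of changes the 5 largest each way. Pml, the stalk genes, Rpsa, Rps6, Rpl5, paralogs and their parents, members on chromosomes 8 and 14, the brightest and the dimmest member, and up to 4 genes per list with the smallest adjusted p were added. The members and lists were chosen with earlier results of these data known. The 8 dim members and Mtor were singled out after their values were seen. Alternatives were no further scaling, a median shift, the workbook, a replicate block, only the groups compared, no dim genes, averaged probe sets, and each array left out.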

Additional observations from a re-analysis of the deposited data

Results flagged for a closer look

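The change from day 0 to day 4 differed between the PML KD and WT lines, by the test of the difference itself, for 19 members in the higher direction and 4 in the lower. Over all genes 27.4% and 14.7% passed in these directions, so the count of 19 of 60 is close to the share over all genes. Over the 1994 brightest genes the shares were 41.5% and 28.8%. The PML KD ESC arrays, which stood apart in Eif2s3y, are part of this comparison. On the log2 scale the differences were 2.82 for Rpl39l, 1.56 for Rpl10l, 1.03 for Rpl8, 0.82 for Rps15 and 0.76 for Rpl7l1. In the other direction they were -1.71 for Rpl12, -1.07 for Rpl30, -0.65 for Rplp2 and -0.33 for Rps12. The workbook gave 3.09 for Rpl39l, 1.35 for Rpl10l, 1.06 for Rpl8, 0.76 for Rps15, 0.78 for Rpl7l1 and -2.17 for Rpl12, all passing, and -0.11 for Rpl30, -0.28 for Rplp2 and -0.26 for Rps12, none passing. With 2 arrays per group, single arrays could not be examined as outliers.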

How the results depend on the processing

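Counts of members that passed moved mostly with the scaling of the arrays. As deposited, without quantile normalization, 51 members were lower at day 0 (PML KD minus WT), 5 higher at day 4, 7 higher over time in WT, 42 higher and 4 lower over time in PML KD, and 36 higher in the difference of changes. After a median shift the counts were 1 higher and 57 lower at day 0, 12 higher and 4 lower at day 4, 2 higher and 38 lower in WT, 49 higher and 4 lower in PML KD, and 52 higher and 2 lower in the difference of changes. The shares of all genes moved too. After the shift 10.2% were higher and 37.2% lower at day 0, 25.2% and 6.23% at day 4, and 11.2% and 37.7% in WT. They were 31.5% and 15.7% in PML KD, and 40.1% and 7.76% in the difference of changes. As deposited 24.9% were lower at day 0, and 16.8%, 24.3%, 24.3% and 25.2% were higher in the other comparisons in that order. Over time in PML KD 25.2% of all genes were lower as deposited. The workbook gave 0 higher and 8 lower at day 4 and 2 lower over time in PML KD, where 12.4%, 11.5% and 26.9% of all genes passed. At day 4, 1 was higher and 9 lower with only the groups compared, and 4 were higher with dim genes left out. Shares over all genes are not given beside these last counts of members. Averaging the probe sets of a gene and using the probe set paired with the gene in the workbook, an alternative chosen after seeing the data, kept these counts within 1.5 times. So did leaving out both PML KD ESC arrays, also chosen after seeing the data, for the day 4 comparison and WT over time.

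With the replicate block 1 member was higher at day 4 and no other count moved by over 1.5 times; same-numbered arrays did not deviate together. Leaving out each array in turn, which assumes that a lone array varies like the others, gave 3 to 3 higher and 20 to 31 lower at day 0, 0 to 3 higher and 3 to 14 lower at day 4, 6 to 10 higher and 8 to 12 lower in WT, 17 to 25 higher and 4 to 8 lower in PML KD, and 14 to 16 higher and 3 to 5 lower in the difference of changes.

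Single genes were followed only in the comparisons for which the text gives or summarises them, a choice made after the values were seen; members also turned direction in other comparisons, mostly after the median shift. Among those followed, directions turned in the following. The median over members became 0.063 at day 4 after the median shift, and in WT -0.033 as deposited and -0.242 after the shift. After the median shift Rpl23, Rps12 and Rps7 differed by 0.13, 0.04 and 0.10 over time in PML KD, Rpl23a, Rpl26 and Rpl32l by -0.10, -0.07 and -0.02 in WT, and Rps12 by 0.26 in the difference of changes. In the workbook Rpl23a differed by -0.20 and Rpl3l by 0.56 over time in WT, Rps15a by 0.02 over time in PML KD, and Rpl30, Rplp2 and Rpl3l by -0.04, -0.13 and 0.17 at day 0. Mtor differed by -0.40 at day 0 after the shift. Rps6 also turned: at day 0 it was -0.39 after the shift and -0.22 in the workbook, over time in PML KD 0.20 as deposited, 0.33 after the shift and 1.44 in the workbook, in WT -0.11 after the shift but 1.23 in the workbook (adjusted p = 6.77e-05; 0.19 in the array table), and 0.44 in the difference of changes after the shift. The cause was not tested. With 2 arrays a group, no member passed with a pairwise difference below 0.19.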
